A study of Oryctolagus cuniculus with 8 samples.

Results

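The MHC class II presentation genes described here were 8 rabbit genes: CD74, RLA-DR-A, CTSS, CTSH, CIITA, IFI30, LGMN and RFX5. They were chosen by name, for their known part in class II presentation, and with earlier results of these data known. The gene lists counted below were also chosen with that knowledge. Values were read from a table of 20922 gene entries. Of the 8, 6 had a row, and all 6 passed the filter on low counts that left 10004 genes for testing. CTSH and IFI30 had no row under these names and count as not measured. RLA-DR-A is the name of RLA-DR-ALPHA as the table's name field, 8 characters wide, cuts it.

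The libraries came from cells of the limbal epithelium, where cornea meets conjunctiva; the animals were New Zealand white rabbits, and no treatment is named. Staining with the DNA dye Hoechst split them into side population (SP) cells, which export the dye and stay dim, and the remaining non-SP (NSP) cells. Total RNA from 4 SP samples and from 4 NSP samples was sequenced, and the comparison asks how gene expression differs between the sorted populations. The labels give neither age nor sex, and do not say whether the samples came from separate or pooled animals, so a p-value here reflects the spread among the sequenced samples, which may be technical.

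Class II molecules carry peptides of proteins taken up from outside the cell to CD4 T cells. Each is made of an alpha and a beta chain that assemble on the invariant chain CD74, which is then cut away in endosomes by cysteine proteases before a peptide is loaded with the help of the DM molecule. The genes are read in professional antigen-presenting cells and, under interferon gamma, in other cells, through the coactivator CIITA, which docks on a promoter complex that includes RFX5; in the limbus, class II molecules are known from resident dendritic and Langerhans cells.

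The SP libraries held 15553295 to 18931836 exon reads and the NSP libraries 20445565 to 23529101, and reads were found for 10821 to 11066 and 10382 to 11531 genes. The mean Pearson correlation of a library with the others of its group, across genes on the log2 scale, was 0.882 to 0.915 in SP and 0.950 to 0.969 in NSP, with SP library 4 the lowest. Levels are given as CPM, read counts brought to a common library size with TMM factors, and log2 fold changes (SP over NSP) carry the standard error (SE) of the limma-voom fit. The median log2 fold change over all 10004 genes was 0.11 with these factors, 0.00 with median-ratio factors and -0.08 with upper-quartile factors, and the changes below are read relative to that shift. In bulk samples, more cells of a type and more RNA per cell cannot be told apart.

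CD74, RLA-DR-A, CIITA and CTSS were higher in SP, by 19.97-fold, 62.4-fold, 39.5-fold and 6.37-fold, and no SP library overlapped any NSP library for these genes. LGMN was 1.99-fold higher, a call that depended on the scaling and on single libraries, and that was not made with the TMM factors as first computed, before they were replaced after results had been seen. RFX5 did not pass the threshold. Counted together, 5 of the 6 measured genes were past a Benjamini-Hochberg adjusted p of 0.05 in limma-voom (30.8% of all tested genes), 5 of them higher in SP (17.5% of all tested genes; 4 of the 6 with the TMM factors as first computed) and 0 lower (13.3%). At an unadjusted p under 0.05, 1 gene, RFX5, was lower, and limma-trend and quality weights also called 0 lower. The groups did not overlap, with SP higher, for 4 of the 6 (18.6% of all tested genes) and, with SP lower, for 0 of the 6 (14.2%). With upper-quartile factors the number of all genes higher and lower moved from 1754 and 1330 to 1406 and 1654, and 4 of the 6 genes stayed past the threshold, all higher.

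CD74 encodes the invariant chain, which blocks the peptide groove of new class II molecules and steers them to endosomes. It held 4050, 2654, 6644 and 5840 CPM in SP libraries 1 to 4 and 123, 146, 484 and 303 CPM in NSP libraries 1 to 4. The lowest SP library stood 5.48-fold above the highest NSP library. The log2 fold change was 4.32 ± 0.46 (SE, n = 4 per group; limma-voom adjusted p = 0.000217), and it ran from 3.89 to 4.69 when 1 library was left out at a time. By mean CPM per kilobase of exon, CD74 ranked 25 among the 10004 tested genes in SP and 526 in NSP, so its RNA was also well detected in the NSP libraries.

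RLA-DR-A encodes the alpha chain of the rabbit DR molecule, the class II molecule itself. Its level was 1098, 748, 2060 and 666 CPM in SP libraries 1 to 4 and 6.82, 8.44, 31.9 and 42.5 CPM in NSP libraries 1 to 4. All SP libraries were above all NSP libraries, with SP library 3 the highest and NSP libraries 3 and 4 well above NSP libraries 1 and 2. The log2 fold change was 5.96 ± 0.59 (limma-voom adjusted p = 0.000174). Its rank by length-scaled level was 100 in SP and 3159 in NSP. How reads shared by related class II genes were assigned is not given in the sources used here, so a part of the RLA-DR-A count may belong to related genes.

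The list of other class II molecules held 20 names, of which 2 had a row, and both rose (17.5% of all tested genes; median log2 fold change 4.18, against 0.11 over all tested genes). RLA-DMA and RLA-DMB encode the chains of DM, which trades the last invariant chain fragment for a peptide. RLA-DMA was at 129, 72.2, 137 and 155 CPM in SP libraries 1 to 4 and at 2.40, 7.61, 9.26 and 9.13 CPM in NSP libraries 1 to 4, which gave 4.25 ± 0.47 on the log2 scale (limma-voom adjusted p = 0.000268). RLA-DMB was at 113, 106.4, 197 and 151 CPM in SP and at 4.43, 4.69, 16.9 and 11.9 CPM in NSP, a log2 fold change of 4.11 ± 0.44 (adjusted p = 0.000223). The groups did not overlap for either gene.

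**Figure D1:**
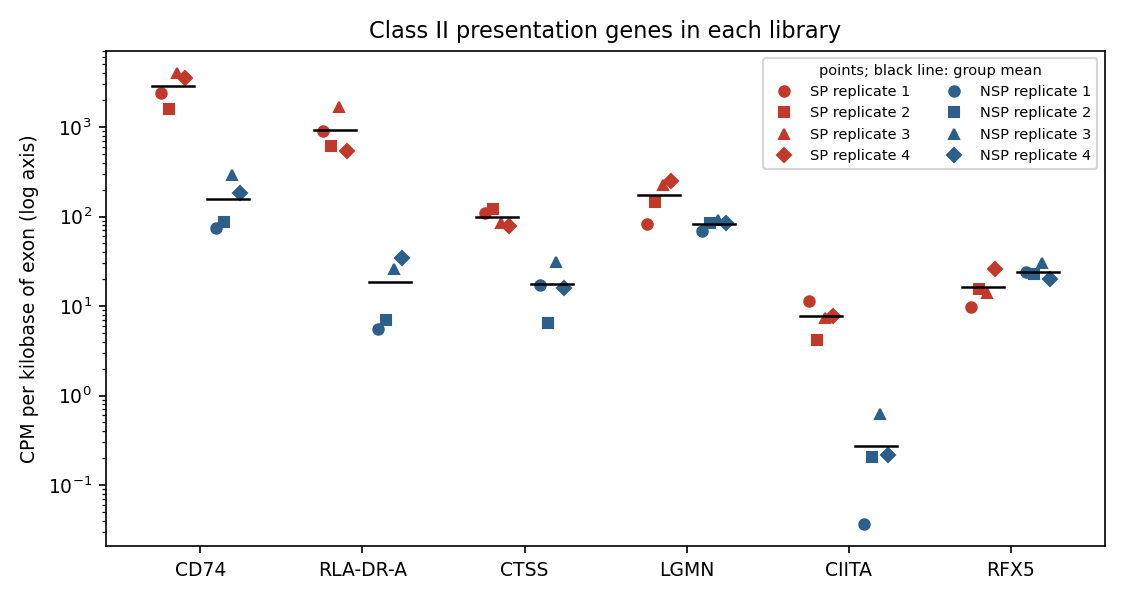
Length-scaled level of each measured gene (CPM per kilobase of exon, log axis) in the 4 SP (red) and 4 NSP (blue) libraries; each point is 1 library, its shape gives the library number in its group, and black lines are group means. CD74, RLA-DR-A, CTSS and CIITA show a gap between the groups, while LGMN and RFX5 overlap.

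CIITA, the coactivator that sets whether class II genes are read, was 70.1, 25.3, 44.3 and 47.0 CPM in SP libraries 1 to 4 and 0.226, 1.25, 3.81 and 1.31 CPM in NSP libraries 1 to 4. The NSP values rest on 5, 27, 76 and 27 reads. Every SP library was above every NSP library, by at least 6.64-fold between the nearest pair. The log2 fold change was 5.30 ± 0.79 (limma-voom adjusted p = 0.000963), and it ranged from 4.42 to 5.88 without single libraries.

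RFX5 encodes the DNA-binding subunit of the RFX complex, which sits on the conserved X box of class II promoters. It was at 24.4, 38.5, 34.8 and 65.1 CPM in SP libraries 1 to 4 and at 59.5, 57.3, 76.2 and 49.8 CPM in NSP libraries 1 to 4. SP libraries 1 to 3 lay below all NSP libraries, while SP library 4 lay above 3 of them. The log2 fold change was -0.67 ± 0.30 and did not pass (limma-voom adjusted p = 0.119). Without SP library 4 it was -1.06 and passed (adjusted p = 0.0102), so this 1 library decided the call.

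Other factors of class II transcription were counted from a list of 13 further names, of which 7 were tested and 0 passed in limma-voom at an adjusted p of 0.05, with a median log2 fold change of 0.33. At an unadjusted p under 0.05, 1 of the 7 was higher, and limma-trend called 0. The 3 subunits of NF-Y, which binds the Y box of the same promoters, had log2 fold changes of 0.32 ± 0.30 for NFYA, -0.37 ± 0.48 for NFYB and 0.40 ± 0.21 for NFYC (adjusted p = 0.439, 0.596 and 0.189). RFXAP and RFXANK, the partners of RFX5, were not analysed here.

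Of 10 tested genes of the interferon gamma route to CIITA and its other promoter factors, 4 rose and 1 fell (17.5% and 13.3% of all tested genes), with a median log2 fold change of 0.53. The receptor gene IFNGR1 was 159.9, 147.3, 181 and 205.0 CPM in SP and 169, 240.4, 375 and 269 CPM in NSP, and did not pass (log2 fold change -0.56 ± 0.26, limma-voom adjusted p = 0.133); it passed, as lower, without SP library 4 (-0.80, adjusted p = 0.0377) or NSP library 1 (-0.89, adjusted p = 0.0274). IRF1, which acts on the interferon-inducible CIITA promoter, had 987 ± 455 CPM in SP and 521 ± 175 CPM in NSP (SD, n = 4; log2 fold change 0.88 ± 0.39, adjusted p = 0.112, or 1.18 and 0.0313 without SP library 1).

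Among the genes that rose was SPI1, which encodes PU.1, a factor of myeloid and B cells that acts on CIITA promoters in these cells. SPI1 was at 14.0, 16.9, 37.4 and 22.7 CPM in SP against 11 reads over all NSP libraries (log2 fold change 8.15 ± 1.15, or 5.15 with limma-trend; limma-voom adjusted p = 0.0007). IRF2, a partner of IRF1 on the interferon-inducible promoter, rose by 0.91 ± 0.22 on the log2 scale (adjusted p = 0.0107, or 0.068 without NSP library 1). PRDM1, which represses CIITA as B cells become plasma cells, also rose (1.39 ± 0.26, adjusted p = 0.00328). The kinase gene JAK1 was past the threshold at 0.76 ± 0.26 (adjusted p = 0.0471), but lost its call with median-ratio factors (adjusted p = 0.0757), with upper-quartile factors, without the filter, and without any single library except SP library 1 and NSP library 3.

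SOCS1, the feedback inhibitor of interferon gamma signalling, fell. Its level was 41.9, 36.3, 54.2 and 42.1 CPM in SP and 117, 121, 128.3 and 118 CPM in NSP, which is -1.49 ± 0.21 on the log2 scale (limma-voom adjusted p = 0.0007). The groups were far apart and both were narrow. Without NSP library 1 the list had 2 genes higher and 2 lower, and without SP library 4 it also had 2 lower.

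CTSS encodes cathepsin S, the protease that makes the last cuts in the invariant chain in most professional antigen-presenting cells. It held 136, 150.5, 105.5 and 96.9 CPM in SP libraries 1 to 4 and 21.2, 8.07, 38.7 and 19.9 CPM in NSP libraries 1 to 4. The groups did not overlap, and the lowest SP library was 2.51-fold above the highest NSP library. The log2 fold change was 2.67 ± 0.40 (limma-voom adjusted p = 0.000931), with 2.25 to 3.00 across the fits that left out 1 library.

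LGMN encodes legumain, an asparagine-specific endosomal protease that can start invariant chain and antigen cleavage. It held 160.1, 285, 436 and 487 CPM in SP libraries 1 to 4 and 132, 164, 175 and 162.8 CPM in NSP libraries 1 to 4. SP libraries 2 to 4 were above every NSP library, but SP library 1 was below 3 of the 4. The log2 fold change was 0.99 ± 0.33 with an adjusted p of 0.0442 in limma-voom. The call ended with median-ratio factors (0.89, adjusted p = 0.0689), with upper-quartile factors (0.81, adjusted p = 0.0918), without the filter on low counts (adjusted p = 0.0553), with the TMM reference library as first chosen (0.88, adjusted p = 0.0748) and in 7 of the 8 fits without 1 library, all but that without SP library 1 (down to 0.62 without SP library 4).

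The list of other endosomal proteases had 8 tested genes, of which 2 rose and 1 fell, shares near the 17.5% and 13.3% of all tested genes (median log2 fold change 0.24). CTSK, a collagen-cutting cathepsin best known from osteoclasts, was 216, 41.3, 145 and 70.4 CPM in SP and 15.5, 21.3, 26.3 and 21.0 CPM in NSP (2.25 ± 0.52, limma-voom adjusted p = 0.00873). CTSE, an aspartic protease of endosomes, rose from 2.63 ± 1.05 to 10.3 ± 3.65 CPM (1.99 ± 0.49, adjusted p = 0.0119). CTSV, a close relative of cathepsin L known from cornea and from thymic epithelium, where it cuts the invariant chain, was 1230, 1099, 446 and 566 CPM in SP and 3317, 2182, 1825 and 2127 CPM in NSP.

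The CTSV groups did not overlap, with NSP the higher, and the log2 fold change was -1.59 ± 0.36 (limma-voom adjusted p = 0.00779). CTSB and CTSC, general lysosomal cathepsins, had log2 fold changes of 0.27 ± 0.21 and 0.22 ± 0.24 and did not pass (adjusted p = 0.361 and 0.534). SPPL2A, the intramembrane protease that clears the membrane stub of CD74, stood at 100.2, 76.3, 80.4 and 7.29 CPM in SP and at 34.1, 35.6, 57.9 and 30.6 CPM in NSP. SP library 4 was the lowest of all 8 libraries for it, and the gene did not pass (0.34 ± 0.70, adjusted p = 0.75); without that library it passed at 1.00 (adjusted p = 0.0143).

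Cystatins inhibit the cysteine proteases among these. Of the 5 listed, 2 were tested, and both fell (13.3% of all tested genes). CST3, cystatin C, was 922, 372, 520 and 829 CPM in SP and 3359, 1248, 1188 and 1749 CPM in NSP, without overlap (log2 fold change -1.47 ± 0.39, limma-voom adjusted p = 0.0173). CST6, cystatin E/M, an inhibitor of legumain and cathepsins in stratified epithelia, fell by 2.42 ± 0.61 on the log2 scale (adjusted p = 0.0133). Beside these falls, all 9 listed markers of limbal epithelium fell as well, with summed levels of 879 to 6799 CPM in SP and 22630 to 41450 CPM in NSP. Their part in the levels of CTSV, CST3 and CST6 was not tested.

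**Figure D2:**
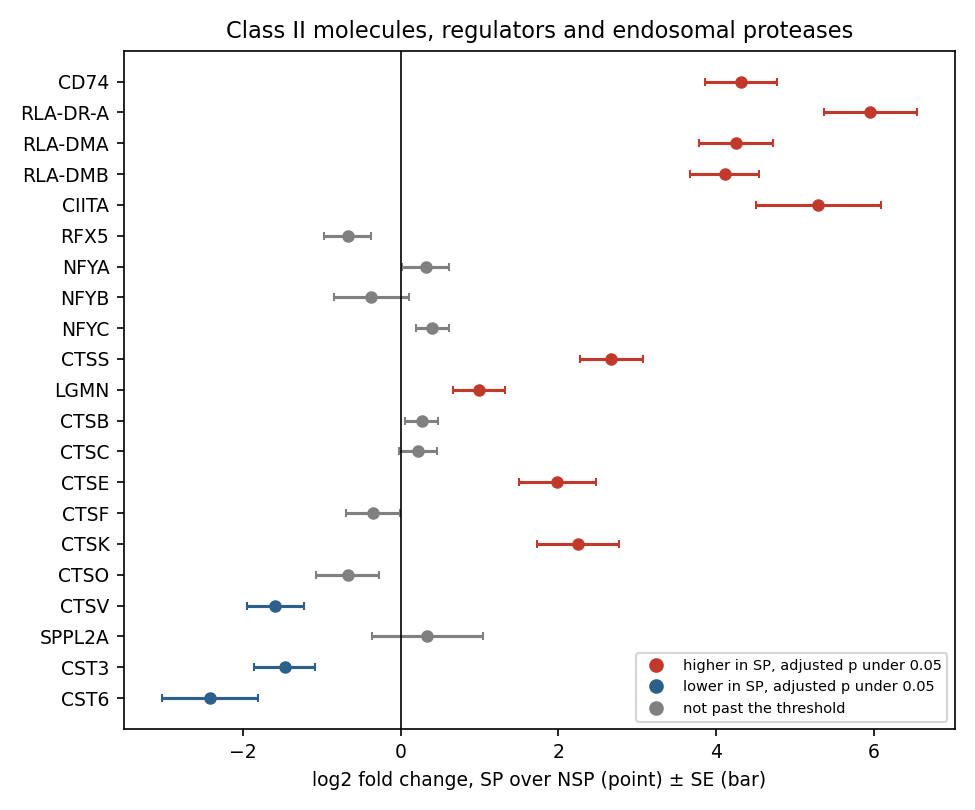
Log2 fold change, SP over NSP (points, with bars of ± SE from limma-voom), for the tested class II molecules, endosomal proteases and cystatins, and for CIITA, RFX5 and the NF-Y genes. The other tested genes of class II transcription are not shown. Red and blue points passed an adjusted p of 0.05. The class II molecules and CIITA lie between 4.11 and 5.96, RFX5 and the NF-Y genes lie between -0.67 and 0.40, and CTSV, CST3 and CST6 lie below -1.

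Levels can be set against each other between genes only per length, and the table gives 1 exon length per gene, from 1223 bases for RLA-DR-A to 6096 for CIITA. In SP the mean length-scaled levels, in CPM per kilobase, were 2876 ± 1075 for CD74, 934 ± 523 for RLA-DR-A, 176 ± 76.5 for LGMN, 98.0 ± 20.2 for CTSS, 16.3 ± 6.93 for RFX5 and 7.65 ± 3.01 for CIITA (SD, n = 4). Neighbours in this order overlapped between libraries in 3 cases: CD74 with RLA-DR-A, LGMN with CTSS, and RFX5 with CIITA. In NSP the order was CD74 at 158 ± 100.1, LGMN at 81.7 ± 9.55, RFX5 at 24.3 ± 4.46, RLA-DR-A at 18.3 ± 14.4, CTSS at 17.6 ± 10.1 and CIITA at 0.27 ± 0.25. There CD74 overlapped with LGMN, and RFX5, RLA-DR-A and CTSS overlapped with each other, while CIITA was below all other genes in every NSP library.

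The genes did not share 1 order of libraries within a group. In SP, library 3 was the highest for CD74 and RLA-DR-A, library 2 for CTSS, library 1 for CIITA, and library 4 for LGMN and RFX5. The ratio of the highest to the lowest SP library was between 1.55 for CTSS and 3.09 for RLA-DR-A. In NSP, libraries 3 and 4 held the highest values of CD74, RLA-DR-A and CIITA and libraries 1 and 2 the lowest, and the ratio of highest to lowest was between 1.33 for LGMN and 16.8 for CIITA.

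The balance of the invariant chain and the DR alpha chain was then followed inside each library, where scaling cancels out. This and 4 other ratios of gene pairs were chosen after the values had been seen. Per base of exon, CD74 outnumbered RLA-DR-A by 2.70, 2.60, 2.37 and 6.43 in SP libraries 1 to 4 and by 13.2, 12.7, 11.1 and 5.23 in NSP libraries 1 to 4. CD74 was the more abundant RNA in all 8 libraries, and library 4 of each group stood apart from its group, so that the groups overlapped. The mean ratio was 3.53 ± 1.94 in SP and 10.6 ± 3.66 in NSP. The test was made on log2 ratios, whose means differed by -1.63 (SP minus NSP). This difference did not pass (exact two-sided permutation p = 0.057, 0.095 when adjusted over 5 ratios). The smallest p that 70 splits allow is 0.029.

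**Figure D3:**
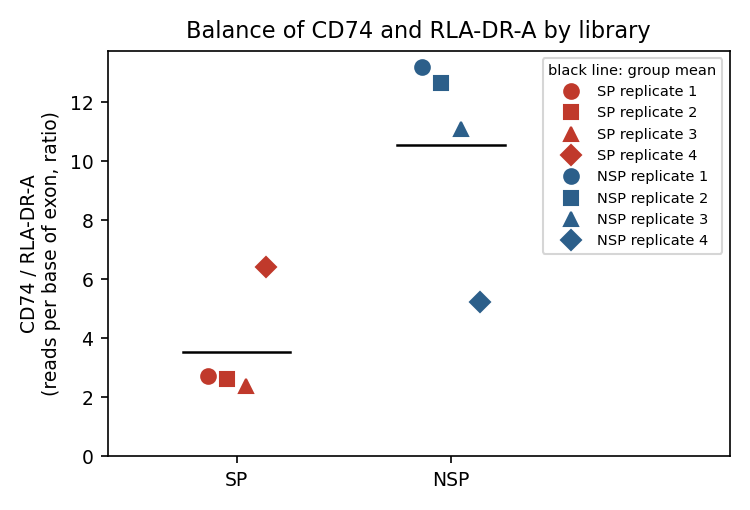
Ratio of CD74 to RLA-DR-A in reads per base of exon for each of the 4 SP (red) and 4 NSP (blue) libraries, with group means as black lines. SP libraries 1 to 3 lie between 2.37 and 2.70 and NSP libraries 1 to 3 between 11.1 and 13.2, while library 4 of both groups lies between them at 6.43 and 5.23.

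Of the other 4 ratios, RLA-DR-A to RLA-DMA was 7.66 ± 3.58 in SP and 2.41 ± 1.18 in NSP, and CTSS to LGMN was 0.708 ± 0.468 and 0.215 ± 0.112. The exact two-sided permutation of log2 ratios gave p = 0.057 and adjusted p = 0.095 for each. The ratio of the DM chains, RLA-DMB to RLA-DMA, was 0.733 ± 0.191 and 0.861 ± 0.356 (p = 0.77 by the same exact permutation test). CD74 to CIITA was 399 ± 142 in SP and 930.5 ± 730 in NSP, where the 5 CIITA reads of NSP library 1 gave the highest value, 1988 (exact permutation p = 0.17, adjusted p = 0.21).

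Genes of class II assembly, traffic and turnover were counted from a list with 13 tested names, of which 5 rose and 8 did not pass (17.5% of all tested genes rose; median log2 fold change 0.73). MARCH8, a ubiquitin ligase that sends surface class II molecules to degradation, was 121, 103, 93.3 and 94.5 CPM in SP and 54.5, 52.4, 53.9 and 52.6 CPM in NSP, with no overlap (0.94 ± 0.20, limma-voom adjusted p = 0.00519). The tetraspanin genes CD53, of leukocytes, and CD82, which associates with class II and DM molecules, had log2 fold changes of 6.77 ± 0.82 and 2.34 ± 0.38 (adjusted p = 0.000366 and 0.00157). MYO1E, a motor protein tied to class II transport in dendritic cells, rose by 1.07 ± 0.25 (adjusted p = 0.0086).

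CD74 also acts at the cell surface as a receptor for the cytokine MIF, together with CD44 and CXCR4. CXCR4 was 362, 520, 917 and 234 CPM in SP and 5.06, 5.80, 2.95 and 8.02 CPM in NSP, or 6.43 ± 0.59 on the log2 scale (limma-voom adjusted p = 0.000128). CD44 was 860, 328, 907 and 145 CPM in SP and 217, 178, 1055 and 199.5 CPM in NSP. NSP library 3 was thus the highest of all 8 libraries for CD44, and the gene did not pass (0.54 ± 0.69, adjusted p = 0.587). MIF was not analysed here.

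Costimulatory genes, which presenting cells use beside class II molecules to activate T cells, had 5 tested members, of which 4 rose and 1 did not pass (17.5% of all tested genes rose; median log2 fold change 4.02). CD83, a marker of mature dendritic cells that also stabilises class II molecules, was 333, 133, 212 and 242 CPM in SP and 5.38, 6.77, 2.00 and 4.71 CPM in NSP (5.64 ± 0.50, limma-voom adjusted p = 0.000106). CD80 and CD86, the ligands of CD28, had log2 fold changes of 4.02 ± 0.45 and 7.33 ± 1.39 (adjusted p = 0.000287 and 0.00321), CD86 with 13 reads over all NSP libraries (4.70 with limma-trend). CD274, the inhibitory ligand PD-L1, was at 1.05 ± 0.34 (adjusted p = 0.0398) and lost its call with median-ratio factors (adjusted p = 0.0527), with upper-quartile factors, without the filter, and without any single library except SP library 4 and NSP library 1. CD40 was not analysed here.

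The T cell side was measured too. All 5 tested genes of the list headed class II recognition by T cells rose (17.5% of all tested genes, median log2 fold change 7.01). CD4, the coreceptor that binds class II molecules, was at 6.15, 18.1, 34.9 and 10.8 CPM in SP against 14 reads over all NSP libraries. Its log2 fold change was 7.01 ± 1.40, or 4.54 with limma-trend (limma-voom adjusted p = 0.00416). Among the separate T cell markers, CD8A was at 52.8, 245, 273 and 61.4 CPM in SP. CD8B was at 15.8, 46.0, 50.9 and 19.2 CPM there, so the T cell RNA was not of CD4 cells alone. LAG3, an inhibitory receptor for class II molecules, was 46.3, 146, 156 and 116 CPM in SP and 25.9, 26.9, 17.7 and 17.7 CPM in NSP (2.27 ± 0.42, adjusted p = 0.00292). The others were the receptor genes CD28, ICOS and CTLA4, whose products bind costimulatory ligands and not class II molecules. Log2 fold changes were 6.69 for CD28 (3.54 with limma-trend) and 7.43 for ICOS (5.24 with limma-trend). The 22 NSP reads of ICOS lay mostly in NSP library 1, with 18. CTLA4 had a log2 fold change of 8.01 ± 1.29, or 4.06 with limma-trend (limma-voom adjusted p = 0.00137). It had 1 read in NSP, and the ratio of pooled reads, SP over NSP, was 904 (exact 95% counting interval 162 to 35690). That interval covers the counting error of the 1 NSP read. It leaves out the spread among the SP libraries, which held 67, 153, 462 and 80 reads.

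Class I presentation, by which cells show peptides of their own proteins, was counted in the same way. Of 11 tested genes 5 rose and 6 did not pass (17.5% of all tested genes rose), with a median log2 fold change of 1.08. The rises included the immunoproteasome subunit PSMB8 (2.01 ± 0.31, limma-voom adjusted p = 0.00119), the peptide transporter TAP1 (1.57 ± 0.32, adjusted p = 0.00435) and NLRC5, which serves class I genes as CIITA serves class II (1.92 ± 0.47, adjusted p = 0.0119; adjusted p = 0.0547 without NSP library 1). B2M, the light chain of class I molecules, was 4289, 4345, 4689 and 1106 CPM in SP and 848, 901, 1819 and 1001 CPM in NSP, so SP library 4 fell among the NSP libraries (1.52 ± 0.46, adjusted p = 0.0299). The B2M call ended without any single library except SP library 4 and NSP library 3 (adjusted p up to 0.11), and the list had 3 rises without SP library 2 or 3 or NSP library 1, 2 or 4. SP library 4 was also the lowest SP library for RLA-DR-A, with 666 CPM, but the second highest for CD74, with 5840 CPM.

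Markers of cell types known to express class II genes were counted beside them, against the 17.5% of all tested genes that rose. Of the listed dendritic and Langerhans markers, 7 of 13 had a row, 4 were tested and 3 rose, with summed levels of 297 to 679 CPM in SP and 86.97 to 142 CPM in NSP. In SP this sum came mostly from the migration receptor CCR7, at 293, 68.3, 229 and 232.5 CPM, and from SIRPA, at 136, 227, 212 and 443 CPM. In NSP it came mostly from SIRPA, which other cells express too, at 107, 140.4, 69.5 and 119 CPM, and CCR7 was at most 16.8 CPM. Among markers of conventional dendritic cells, XCR1 and FCER1A had no read in NSP but few in SP. XCR1 had 10, 0, 22 and 0 reads in SP libraries 1 to 4, and FCER1A had 172, 7, 27 and 0. BATF3 did not pass (log2 fold change 0.48 ± 0.72, limma-voom adjusted p = 0.656). CLEC9A had no read in SP, and FLT3, ITGAX and CD207 had no value here. The list had 1 rise without NSP library 3 or NSP library 4. SIRPA lost its call with median-ratio factors (limma-voom adjusted p = 0.0584), with upper-quartile factors (0.0717) and with the TMM factors as first computed (0.0639). It also lost it without any single library except SP library 1 and NSP library 2. LAMP3, at 0.827 to 3.15 CPM in SP, lost its call without NSP library 2, 3 or 4.

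Of the macrophage markers, 12 of 16 had a row, 6 were tested and 5 rose, with summed levels of 174 to 359 CPM in SP and 42.1 to 80.7 CPM in NSP. CSF1R, the receptor of macrophage growth factor, was 11.9, 17.6, 32.5 and 32.01 CPM in SP and 0.768, 1.35, 1.90 and 0.632 CPM in NSP (4.31 ± 0.69 on the log2 scale, limma-voom adjusted p = 0.00133). The complement genes C1QA and C1QB and VSIG4, which mark resident macrophages, had no read in any SP library, and MARCO had 8 reads in SP and 87 in NSP. C1QC, of the same list, had 5 reads in SP, all in SP library 2, and 14 in NSP, all in NSP library 3. MRC1 went the other way, with 7 reads in SP and 0 in NSP. In NSP most of the sum came from CD68 (22.4 CPM on average, against 37.6 in SP, not past the threshold), MERTK (20.4 CPM) and CD14 (9.01 CPM). Without NSP library 1 the list had 3 rises, and without NSP library 2 it had 1 fall.

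B cells also present antigen through class II molecules. All 7 tested B cell markers rose, with 282 to 849 CPM in sum in SP and 0.186 to 1.85 CPM in NSP. The largest part of the sum was MZB1, at 323, 214, 196.5 and 619 of 674, 282, 421 and 849 CPM in SP libraries 1 to 4. PAX5 was not tested, and its groups overlapped, with 50, 5, 19 and 6 reads in SP and 7, 0, 7 and 12 in NSP. CD79B was 36.7, 14.3, 17.7 and 74.5 CPM in SP against 13 NSP reads, all in NSP library 1 (log2 fold change 9.01 ± 1.60, or 5.60 with limma-trend; limma-voom adjusted p = 0.00235). MS4A1, MZB1, POU2AF1 and BANK1 had no NSP read, and MZB1, of plasma cells and marginal zone B cells, was at least 8990-fold higher in SP, taking a floor of 3 reads for the NSP group.

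Across the SP libraries the class II genes and the markers did not keep 1 order. CIITA was highest in SP library 1, as were CCR7 and CD83, while CD74 and RLA-DR-A were highest in SP library 3, as was CD4. Other lists of non-epithelial cells were higher in SP as well: all 5 tested T cell markers (408 to 1273 against 2.18 to 6.22 CPM in sum), all 9 endothelial markers (1115 to 10930 against 8.96 to 15.5 CPM), all 6 melanocyte markers (1829 to 12810 against 90.9 to 260 CPM) and all 6 tested stromal markers (211 to 381 against 37.0 to 54.0 CPM). Endothelial cells can also carry class II molecules. The part of each of these cell types in the SP levels of CD74, RLA-DR-A, CIITA and CTSS was not tested.

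**Figure D4:**
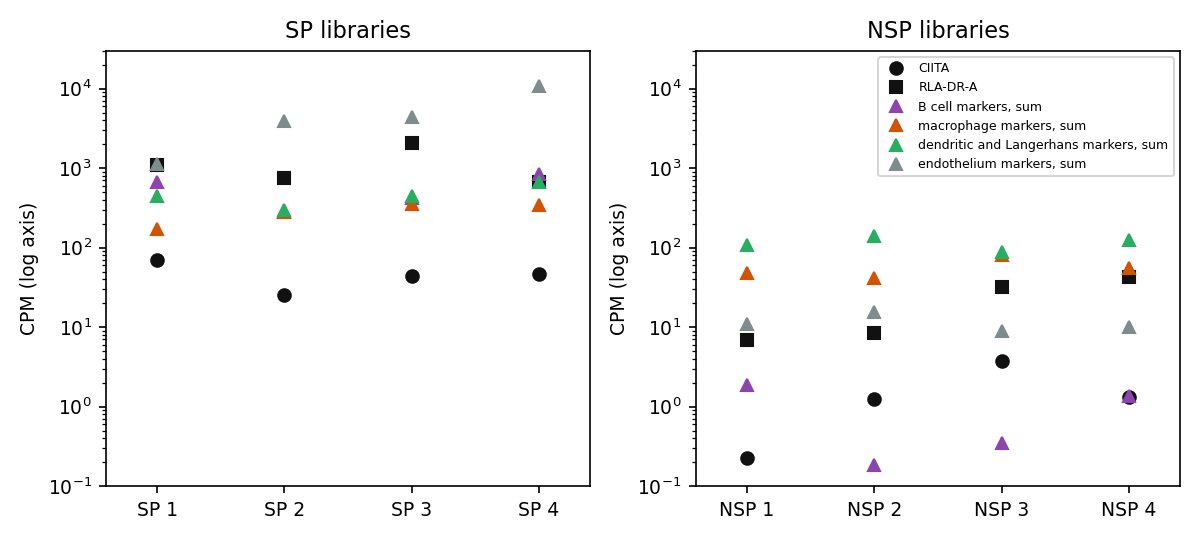
CIITA and RLA-DR-A (black) and summed marker levels of 4 cell types (coloured triangles) in each SP library (left) and NSP library (right), in CPM on a log axis. The B cell sum lies at 282 to 849 CPM in SP, with MZB1 its largest part, and at 0.186 to 1.85 CPM in NSP. The macrophage and dendritic sums are at least 42.1 CPM in every NSP library, the latter mostly SIRPA.

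In the NSP libraries, where the limbal markers were high, the libraries also differed in class II genes and in leukocyte markers; the genes given here were picked out after their values had been seen. NSP library 3 had the highest CIITA, CD74 and CTSS and the second highest RLA-DR-A. It also held the highest NSP level of CCR7, at 16.8 CPM against 0.226, 0.696 and 4.96 CPM in NSP libraries 1, 2 and 4, and of FCER1G, a signalling chain of myeloid cells, at 2.15 CPM against at most 0.232 CPM. All 22 C1QA reads and all 9 C1QB reads of the 8 libraries lay in NSP library 3. C1QC had 14 reads there and 5 in SP library 2. Other such genes ran the other way: CD83 (2.00 CPM) and CXCR4 (2.95 CPM) were lowest there among the NSP libraries, LAMP3 had no read there, CD14 was highest in NSP library 1 (10.7 CPM), and the summed dendritic markers were lowest in NSP library 3 (86.97 CPM). Its summed limbal markers, 22630 CPM, were also the lowest, a sum to which KRT15 gave 11540 CPM and KRT12 2683 CPM, while TP63 (393 CPM), PAX6 (399 CPM) and DSG3 (340.4 CPM) were higher there than in the other NSP libraries. NSP library 1, with the least CD74, RLA-DR-A and CIITA, had the highest limbal sum, 41450 CPM. Whether these levels are tied was not tested, and without NSP library 3 the log2 fold changes were 4.69 for CD74, 6.27 for RLA-DR-A, 5.88 for CIITA and 3.00 for CTSS.

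The genes whose pattern was most like that of CD74 and RLA-DR-A were searched among 8581 named genes, by the root mean square distance of gene-centred log2(CPM + 0.5) over the 8 libraries. The nearest to CD74 were RLA-DMB at a distance of 0.24, the endothelin receptor gene EDNRB at 0.42, RLA-DMA at 0.44, CMTM7 at 0.45 and PPP1R16B at 0.47. The nearest to RLA-DR-A were CYFIP2 at 0.55, FHL1 at 0.58, SLC38A5 at 0.62, PHACTR1 at 0.63 and TNFRSF9, which encodes the T cell costimulatory receptor 4-1BB, at 0.64. Both DM chain genes were thus among the 5 nearest to CD74 and neither among the 5 nearest to RLA-DR-A. RLA-DMB had the smallest distance of all, and its values across the libraries are those given above. The distances are descriptions with no test, and the difference between the groups makes up most of each pattern. A near pattern was not an equal change. The limma-voom log2 fold changes ran from 4.11 to 6.84 for the 5 genes nearest to CD74, itself at 4.32. They ran from 5.41 to 8.71 for the 5 nearest to RLA-DR-A, itself at 5.96. The 0.5 CPM added before the log narrows the differences of genes near 0 in NSP, such as EDNRB (mean 0.59 CPM there).

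The authors' deposited table carries its own test between the groups, an EDGE test with folds signed by direction, where a negative value is lower in NSP. In the authors' deposited table the fold was -16.9 for CD74, -46.5 for RLA-DR-A, -26.3 for CIITA and -5.13 for CTSS, with corrected p of 3.95e-13, 0, 1.25e-09 and 7.9e-06. For LGMN the authors' deposited table gives -2.01 with a corrected p of 0.0846, and for RFX5 it gives 1.59 with a corrected p of 0.414. The authors' values and the limma-voom fit thus part at LGMN, which is past 0.05 in the fit and not in the authors' deposited table.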

How the data were processed

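The authors deposited 1 fixed-width text table for 4 SP and 4 NSP RNA-seq libraries (Ion Proton, per the labels' protocols), with 163 fields of 8 characters in 6 stacked blocks. Its values touch, so fields were read by character position. The whole-number exon read counts, exon length and group means, and the p-values and fold changes of an EDGE test, are the authors' deposited values, per the file headers; the recomputed group means differed by at most 0.05. Aligner, genome build and annotation: not given in the sources used here. Another 143 columns of per-sample values were not used. The headers show the group alone, so libraries are numbered in column order and not tied to samples. Names are cut at 8 characters: 10603 are complete, 315 matched 1 symbol of a RefSeq table (assembly mOryCun1.1), and the other 10004 entries (10.1% of reads) stayed in the tests unnamed. No sequences or coordinates are printed.

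TMM factors were computed by hand in R (trims of 30% and 5%). Genes were kept at 0.508 CPM (10 reads in the median library) or more in 4 libraries and 15 reads in all, and tested with limma-voom (limma 3.58.1, R 4.3.3; group only; offset 0.5; two-sided; Benjamini-Hochberg over all tested genes at 0.05), tested first on simulated counts. In the simulated counts, 22 of 100 genes changed 2-fold were called, 100 of 100 changed 8-fold, and 3 of 10091 unchanged. The simulation gave every gene the same dispersion (spread beyond counting error) and changed few genes, unlike these data. A gene that did not pass may thus still differ by 2-fold. Genes that vary more between libraries, such as CD44 and SPPL2A, may differ by more. Ratios within libraries used exact permutation of the difference of mean log2 ratios over 70 splits. Intervals and floors (3 reads over a group) cover counting error only. Python 3.11.15, pandas 2.3.3, NumPy 2.4.6, SciPy 1.17.1 and matplotlib 3.10.9 were used.

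The members and the 18 gene lists (class II molecules and transcription, interferon gamma route, endosomal proteases, cystatins, assembly and traffic, CD74 receptor partners, costimulation, T cell recognition, class I, and markers of 8 cell types) were chosen with earlier results of these data known. Named are the members, a fixed set of pathway genes, and the up to 4 genes of smallest p in each list and direction. The 5 genes most like CD74 and RLA-DR-A are named too. CLEC9A, XCR1, FCER1A, BATF3, C1QA, C1QB, C1QC, MRC1, VSIG4, CD68, MARCO, PAX5, POU2AF1, CD8A, ITGAX and CD207 were named after their values were seen. Values of a few fixed genes are not reported here, although the tests and counts include them. The TMM reference library was first chosen with all-zero rows kept; after results were seen this was replaced by the standard choice, and the first version is kept as an alternative. The other alternatives comprised median-ratio or upper-quartile factors, 2 other filters, limma-trend on log2(CPM + 0.5), quality weights, and each library left out in turn.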

Additional observations from a re-analysis of the deposited data

Results flagged for a closer look

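Each value here stood so far from the other libraries of its group that its gap to the nearest passed Dixon's 95% critical value for 4 samples. This was looked for in 180 groups of 4 values, and 17 were found. Chance gives about 1 in 20 for normally distributed values, which counts near 0 are not. Where all other libraries of a group hold no read, any read passes, as for CTLA4, CD79B, BLK and TEK in NSP. The number found can therefore not be read against that rate. None belonged to CD74, RLA-DR-A, CTSS, CIITA, LGMN or RFX5.

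NSP library 3 stood high for CD44 (1055 CPM, others 178 to 217), JAK1 (507 CPM, others 303 to 337), B2M (1819 CPM, others 848 to 1001), CMTM7 (4.51 CPM, others 1.07 to 1.46) and FCER1G (2.15 CPM, others at most 0.232). SP library 4 stood high for KRT15 (2030 CPM, others 45.4 to 154) and low for B2M (1106 CPM, others 4289 to 4689). SP library 3 stood high for TNFRSF9 (578 CPM, others 190.4 to 217).

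The remaining 9 were genes near 0 in NSP. In NSP library 1 these were ICOS (0.813 CPM), LAMP3 (0.904 CPM), CD79B (0.587 CPM) and CTLA4 (0.0452 CPM, 1 read). In NSP library 2 they were the endothelial genes VWF (1.07 CPM) and TEK (0.0928 CPM), and in NSP library 4 the melanocyte gene TYR (7.24 CPM), the B cell gene BLK (0.389 CPM) and the T cell gene CD247 (0.389 CPM).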

How the results depend on the processing

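CD74, RLA-DR-A, CIITA and CTSS kept their direction and stayed past the threshold under all 15 alternatives. LGMN did not: its log2 fold change was 0.89 with median-ratio factors (adjusted p = 0.0689), 0.81 with upper-quartile factors (adjusted p = 0.0918), 0.99 without the filter (adjusted p = 0.0553) and 0.62 to 1.32 without single libraries. The TMM factors as first computed, which were replaced after the data had been seen and added then as an alternative, gave LGMN 0.88 (limma-voom adjusted p = 0.0748) and RFX5 -0.80 (adjusted p = 0.0795), with 4 members higher in place of 5 and 1541 genes higher and 1509 lower in place of 1754 and 1330, so the LGMN call rests on a choice of reference library made with results known. Without single libraries RFX5 ran from -1.06 to -0.45, members higher numbered 4 to 5 and lower 0 to 1, genes higher 1200 to 1994 and lower 973 to 1854, and the NSP level of LGMN 79.1 to 91.7 CPM per kilobase.

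In the same fits the interferon gamma route had 2 to 5 genes higher and 1 to 2 lower, CD74 receptor partners 1 to 2 higher, class I 3 to 5 higher, dendritic markers 1 to 3 higher, and macrophage markers 3 to 6 higher and 0 to 1 lower. Without the filter, 1 assembly gene was lower and 2 receptor partners were higher. SPPL2A turned to -0.01 without SP library 1. No paired analysis was possible because the count columns carry no replicate number. CIITA in NSP rests on few reads, down to 5 in NSP library 1, the deepest of the 8 libraries. The cause of these changes was not tested.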
